A study of Ovis aries with 14 samples.

Results

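The control ovaries of adult sheep were set against the control ovaries of sheep fetuses, to describe which genes were higher or lower at the later age when no hormone treatment had been given. Of the 14 libraries of the series, 7 were used, 3 fetal and 4 adult, and the 7 testosterone libraries were left out. The fetal group was fetal controls 1, 2 and 3, taken at gestation day 90, and the adult group was adult controls 4, 5, 6 and 7, taken at 2 years. All 7 animals were wild type Suffolk sheep, labelled control, and RNA came from the whole frozen ovary. The labels give no stage of the oestrous cycle, season, mother or litter, so the p-values below measure only the spread between these 7 samples. The fetal and adult libraries came from different deposited tables, and age and table cannot be told apart.

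The ovary of a sheep fetus at this age is forming its lifelong store of eggs. Germ cells divide, enter meiosis, pair and recombine their chromosomes, and are then enclosed by flat somatic cells as primordial follicles. The adult ovary holds arrested oocytes in follicles at all stages, theca and granulosa cells that make steroids under gonadotrophin control, the corpus luteum left by ovulation, and a vascular, muscular and fibrous stroma. A whole ovary is therefore a mixture, and its RNA follows both the makeup of the tissue and the state of each cell type.

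Each library held 22.6 to 33.4 M recovered reads, and 15175 genes had a row in the fetal table and in both adult tables. Values are normalized reads, that is, reads divided by a size factor computed over the 7 libraries together. They are listed in the order fetal controls 1, 2 and 3, then, after the word against or in a second list, adult controls 4, 5, 6 and 7. Across genes, the correlation of log2 values between libraries ran from 0.982 to 0.988 among the fetal controls, from 0.835 to 0.961 among the adult controls and from 0.779 to 0.880 between the ages. The SD of a gene over the libraries of its group was 0.154 on the log2 scale at the median in the fetal controls and 0.492 in the adult controls, and it was larger in the adult controls for 92.2% of genes.

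2 adult libraries stood apart. That the adult ovaries differ in luteal and smooth muscle genes was known beforehand. Adult control 6 held 103875 normalized reads of OXT, the oxytocin gene that the ruminant corpus luteum expresses strongly, against 52.0 to 74.9 in the other adult controls. Adult control 4 held 59229.8 of CNN1, the smooth muscle calponin, against 2071 to 8451 in the other adults. It also held 5.08 of FSHR, the follicle-stimulating hormone receptor of granulosa cells, against 570.0 to 1737. Beside the counts of each gene list, the counts without adult controls 4 and 6 are given in the same order. OXT, CNN1 and FSHR belong to the corpus luteum, smooth muscle and granulosa cell lists. How those lists change without the 2 libraries therefore follows in part from how the libraries were picked.

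Of 15168 genes tested, 1405 were higher in the adult controls and 1770 were lower, at an adjusted p under 0.05 in limma with Benjamini-Hochberg adjustment over all 15168. These are 9.26% and 11.7% of the genes tested, or 20.9% in either direction, and the list counts of this comparison are to be read against them. List counts from other fits have their own background. Without adult controls 4 and 6, 20.9% of genes were higher and 22.8% lower (3165 and 3447 genes), so a list count rises in that fit unless it is read against those shares. With 1 library left out 2.29% to 12.1% were higher and 4.45% to 15.1% lower. DESeq2 called 18.1% higher and 16.1% lower and edgeR 9.39% and 11.3%, while limma called 4.36% and 19.3% with RPM (each library scaled to the same total), 5.04% and 20.9% with the values as deposited and 10.2% and 12.7% with quantile normalization. A list count in these 5 fits is given where it differed from the main one by over 1.5 times and by at least 3 genes. The values of the 2 groups did not overlap for 40.5% of genes, with the adult controls above for 19.9% and the fetal controls above for 20.6%. The largest differences were mostly decreases, since 170 called genes were at least 16 times lower in adults on the fitted log2 scale and 37 were at least 16 times higher. The median difference over all genes was 0.029 on the log2 scale. Scaling to library totals (RPM) moved that median by -0.36 and using the values as deposited moved it by -0.29, and the calls then became 661 higher and 2926 lower, and 764 higher and 3165 lower. Log2 differences below are adult minus fetal, in log2 of normalized reads plus 1. Apart from a core of ovarian genes, the named called genes were chosen for large differences among called genes without overlap. For them the lack of overlap follows from that choice and adds no evidence to the call. Where a named call was lost when 1 library was left out, the highest adjusted p of those 7 fits follows the main one. Calls fell to 1024 to 1099 in all when a fetal control was left out, and the lowest list counts with 1 library left out, given below as ranges, were all reached in those fits.

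Germ cell transcripts were far lower in the adult. Of 9 measured genes of germ cell identity 6 were lower and 0 were higher, with a median log2 difference of -3.04 against 0.029 over all genes (0 to 1 higher and 5 to 7 lower with 1 library left out, 1 and 7 without adult controls 4 and 6). DDX4 (ENSOARG00000007644), the VASA helicase that marks germ cells, held 3882, 5782 and 3256 normalized reads in the fetal controls and 22.9, 66.0, 55.0 and 69.0 in the adult controls. The lowest fetal value was far above the highest adult value, and the means differed 81.0-fold (log2 difference -6.39 ± 0.42 SE, adjusted p = 3.1e-04). SALL4, a zinc finger factor of pluripotent and germ cells, held 789, 927 and 975 in the fetus and 2.54, 15.4, 11.5 and 15.8 in the adult (log2 difference -6.41 ± 0.58 SE, adjusted p = 8.2e-04). The groups lay far apart, and the value of adult control 4 was under the level of 3 reads in that library. DND1, which binds RNA in germ cells, was lower too (850.4, 957 and 992 against 81.2, 131, 85.1 and 176, log2 difference -3.04 ± 0.32 SE, adjusted p = 0.00131). In whole tissue, a smaller share of germ cells and less RNA per germ cell cannot be told apart.

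KIT, the receptor that migrating germ cells and oocytes carry, did not pass the test. It held 2657, 3192 and 4171 in the fetal controls and 282, 954, 5766 and 575 in the adult controls (log2 difference -1.75 ± 0.90 SE, adjusted p = 0.199). Adult control 6, the library with high OXT, lay above every fetus, and the other 3 adults lay below every fetus. KIT is also a mast cell gene.

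Genes of the piRNA pathway, which silences transposons in germ cells with small RNAs bound by PIWI proteins, were lower almost throughout. Of 13 measured genes 10 were lower (0 higher and 9 to 11 lower with 1 library left out, 0 and 11 without adult controls 4 and 6), the fetal controls lay above the adults for 12, and the median difference was -4.79. MAEL, needed for transposon silencing and meiosis, held 2751, 3068 and 2302 against 24.1, 26.4, 31.9 and 24.9 (log2 difference -6.60 ± 0.24 SE, adjusted p = 8.1e-05). The 4 adults lay within a narrow band and the means differed 101-fold. PIWIL2, a PIWI protein itself, held 754, 1073 and 876 against 2.54, 7.70, 6.20 and 27.1 (log2 difference -6.65 ± 0.66 SE, adjusted p = 0.00113). TDRD5, a Tudor protein of the germ granule, held 2044, 2887 and 2828 against 5.08, 23.1, 12.4 and 20.4 (log2 difference -7.48 ± 0.50 SE, adjusted p = 3.1e-04), and it had the largest fitted decrease among the named genes. TDRD6 (-6.13, adjusted p = 3.1e-04) and GTSF1, a zinc finger partner of PIWI proteins (-6.45, adjusted p = 4.1e-04), followed, again with no overlap of the groups. FKBP6, a chaperone of the pathway, did not pass. It held 655, 688 and 721 against 16.5, 225, 32.8 and 399 (log2 difference -3.01 ± 1.05 SE, adjusted p = 0.0787), and adult controls 5 and 7, those with high follicle transcripts, held the 2 highest adult values.

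Meiotic genes fell in the same direction. These lists share members, since MAEL counts in the germ cell, piRNA and meiotic entry lists and PIWIL2 in the germ cell and piRNA lists. Among genes of meiotic entry and the chromosome axis 6 of 7 were lower (median -3.34, and 0 higher and 6 to 7 lower with 1 library left out, 0 and 6 without adult controls 4 and 6), and among genes of recombination 6 of 12 (median -1.94, and 0 higher and 4 to 8 lower with 1 library left out, 0 and 7 without adult controls 4 and 6). SMC1B, the cohesin subunit used in meiosis, held 1938, 2952 and 1905 in the fetus and 13.96, 34.1, 16.8 and 69.0 in the adult (log2 difference -6.28 ± 0.55 SE, adjusted p = 6.8e-04). STAG3, its partner in the meiotic cohesin ring, held 3377, 4654 and 3468 against 67.3, 91.3, 135 and 254 (log2 difference -4.96 ± 0.43 SE, adjusted p = 6.8e-04). REC114, which helps to place the double-strand breaks, held 475, 582 and 481 against 16.5, 9.90, 20.4 and 20.4 (log2 difference -4.90 ± 0.36 SE, adjusted p = 3.9e-04). In each of the 3 the lowest fetal value was more than 10 times the highest adult value.

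SYCE2 of the central element (-3.14, adjusted p = 0.00435), MAJIN of the telomere attachment complex (-3.34, adjusted p = 0.00596), MEI4 (-2.87, adjusted p = 0.00727), TEX15 (-3.79, adjusted p = 0.0074) and HSF2BP, which binds the recombination mediator BRCA2 (-2.51, adjusted p = 9.3e-04), were also lower. SYCP3, the lateral element protein whose message persists in oocytes, held 791, 883 and 354 against 275, 191, 239 and 502 and did not pass (log2 difference -1.15 ± 0.43 SE, adjusted p = 0.0957), and fetal control 3 lay below adult control 7. MLH3, a mismatch repair protein that also acts in somatic cells, held 780.0, 802 and 586 against 432, 545, 524 and 625 (log2 difference -0.44 ± 0.21 SE, adjusted p = 0.161).

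Several genes of early meiosis had a row in the fetal table and no row in either adult table, and were not tested. Every row of each table holds at least 61 reads over its 6 libraries, so these genes are not listed at the later age and no adult value is given. SPO11, the enzyme that cuts the chromosomes to start recombination, held 79.9, 126 and 8.84 in fetal controls 1, 2 and 3, and DMC1, the meiotic recombinase, held 74.2, 164 and 11.5. HORMAD1, which marks unpaired axes, held 231, 402 and 32.7, and SYCP2 of the lateral element held 269.7, 474 and 146. SYCP1, the transverse filament, was listed in the fetal table and in the second adult table, with 431, 794 and 134 in the fetal controls, 7.98 in adult control 6 and 30.5 in adult control 7. STRA8, the gatekeeper of meiotic entry, held 113, 242 and 43.3, then 18.6 and 6.79. In all 6 of these genes fetal control 2 was the highest fetus and fetal control 3 the lowest.

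Oocyte genes were lower in the adult too, and here the fetal controls stood in another order. Of 12 measured genes of oocyte growth and the zona pellucida 10 were lower (0 higher and 9 to 10 lower with 1 library left out, 0 and 10 without adult controls 4 and 6), with a median difference of -4.99. LHX8, a transcription factor of early oocytes, held 3223, 3916 and 4502 against 13.96, 37.4, 38.1 and 56.5 (log2 difference -6.83 ± 0.45 SE, adjusted p = 3.1e-04). PADI6, part of the maternal lattice of the egg, held 11857, 11064 and 23775 against 62.2, 253, 135 and 390.2 (log2 difference -6.42 ± 0.61 SE, adjusted p = 9.4e-04). OOEP, of the subcortical maternal complex, held 889, 1216 and 1583 against 40.6, 26.4, 24.8 and 36.2 (log2 difference -5.21 ± 0.32 SE, adjusted p = 2.5e-04). The groups did not overlap in any of these, and fetal control 3 was the highest fetus in all 3.

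ZP2, a coat protein of the egg, held 2985, 2688 and 8811 against 119, 256, 134 and 457 (log2 difference -4.31 ± 0.58 SE, adjusted p = 0.00335). GDF9, the growth factor that oocytes send to granulosa cells, held 1930.2, 1798 and 3197 against 72.4, 212, 138 and 293 (log2 difference -3.81 ± 0.48 SE, adjusted p = 0.0026). NLRP9, another maternal gene, held 681, 409 and 1801 against 7.62, 40.7, 3.55 and 75.8 (log2 difference -5.40 ± 1.03 SE, adjusted p = 0.0116, and 0.0618 without fetal control 3). H1FOO, the linker histone of oocytes, held 1099, 1206 and 2087 against 7.62, 70.4, 37.2 and 96.1 (log2 difference -5.18 ± 0.79 SE, adjusted p = 0.00539). Fetal control 3 was again the highest fetus in these 4 genes, and among adults controls 5 and 7 held the most. BMP15, the sheep fecundity gene made by oocytes, did not pass, with 105, 24.9 and 227 in the fetus and 0, 47.3, 3.55 and 67.9 in the adult (log2 difference -2.95 ± 1.55 SE, adjusted p = 0.209). The 0 of adult control 4 allows up to 3 reads, or 3.81 normalized reads, and fetal control 2 lay below adult controls 5 and 7.

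**Figure D1:**
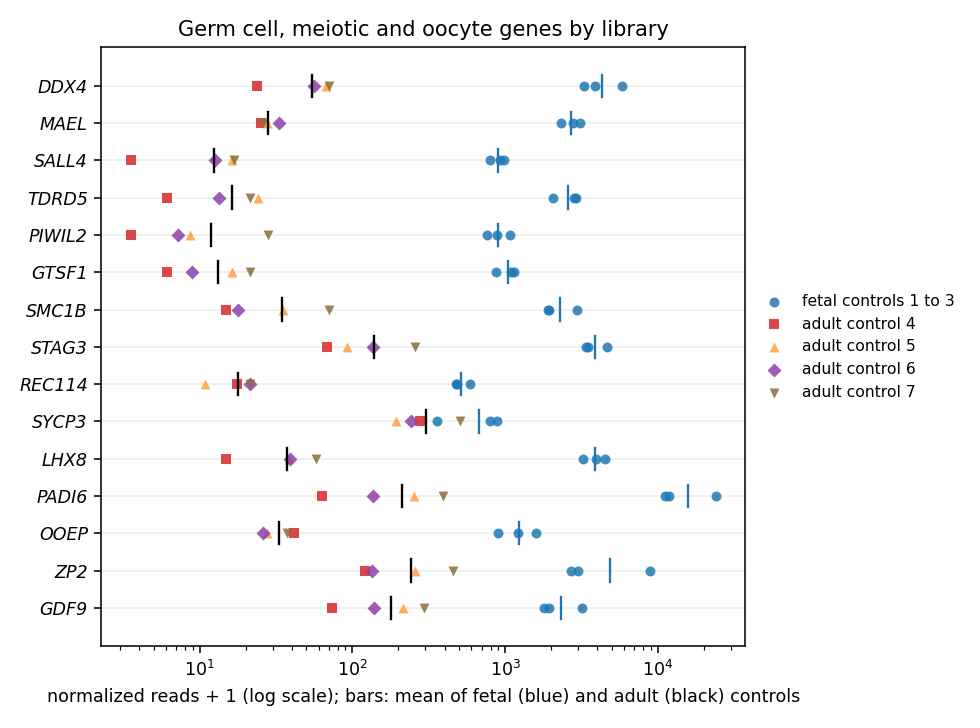
Normalized reads plus 1 (horizontal axis, log scale) of 15 germ cell, meiotic and oocyte genes in each library, with fetal controls as blue circles, adult controls 4 to 7 as separate symbols and short bars at the group means. The blue points lie to the right of every adult symbol in all rows except SYCP3, where fetal control 3 lies among the adults.

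Transcription factors and signals of the early gonad included several that were lower. Of 19 measured gonadal factors 6 were lower and 0 higher, with 13 not called and a median of -0.75 (0 to 2 higher and 2 to 9 lower with 1 library left out, 4 and 11 without adult controls 4 and 6). WNT4, the signal that holds the early gonad to the ovarian path, held 3081, 2137 and 3274 against 175, 319, 402 and 270.3 (log2 difference -3.31 ± 0.31 SE, adjusted p = 8.7e-04). RSPO1, which amplifies Wnt signals on that path, held 1710.3, 1669 and 1743 against 253, 39.6, 93.1 and 76.9 (log2 difference -4.20 ± 0.55 SE, adjusted p = 0.00305). All 4 adults were well below the fetuses for both, and adult control 4 was the lowest adult for WNT4 and the highest for RSPO1.

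WT1, needed for the gonadal ridge and kept in granulosa and surface cells, held 6659, 5769 and 6165 against 3143, 2383, 1495 and 3024 (log2 difference -1.36 ± 0.26 SE, adjusted p = 0.0121, and 0.0602 without fetal control 1). LHX9, a gonadal ridge factor, held 1516, 877 and 1113 against 680.4, 254, 133 and 351 (log2 difference -1.92 ± 0.51 SE, adjusted p = 0.0362, and 0.134 without fetal control 1). CBX2, a Polycomb subunit that acts in sex determination, held 1967, 1752 and 1849 against 533, 1123, 482 and 1088 (log2 difference -1.31 ± 0.34 SE, adjusted p = 0.032, and 0.117 without fetal control 1). NR5A1, the nuclear receptor that drives steroid cell genes, overlapped between the ages, with 1142, 1095 and 1408 against 592, 1592, 1112 and 2790.2 (log2 difference 0.11 ± 0.47 SE, adjusted p = 0.885), and the sign of its difference was negative with RPM, with the values as deposited and without adult control 7.

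Granulosa cell genes did not move as a block, with 2 of 17 higher and 2 lower. The mean of the list on the log2 scale, relative to the 7 libraries, was -0.57 to -0.43 in the fetal controls and -1.37, 1.19, 0.27 and 1.41 in adult controls 4, 5, 6 and 7. The counts were 1 to 6 higher and 0 to 2 lower with 1 library left out, 11 and 2 without adult controls 4 and 6, where 20.9% of all genes were higher. DESeq2 gave 8 higher and 2 lower. FSHR held 14.1, 7.74 and 17.7 in the fetus and 5.08, 754, 570.0 and 1737 in the adult (log2 difference 4.27 ± 1.79 SE, adjusted p = 0.126). It was above every fetus in 3 adults and below every fetus in adult control 4. FST, which encodes the activin-binding protein follistatin, held 132, 159.9 and 134 against 187, 2926, 2001 and 5195 and passed narrowly (log2 difference 3.44 ± 1.02 SE, adjusted p = 0.0493, and 0.147 without fetal control 3). INHA, the inhibin subunit of growing follicles, held 698, 764 and 1108 against 145, 5359.8, 436 and 9928 (log2 difference 0.69 ± 1.40 SE, adjusted p = 0.754), high in adult controls 5 and 7 and below the fetuses in adult controls 4 and 6, and its difference was negative without adult control 7.

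NR5A2, a nuclear receptor needed for ovulation, rose with no overlap, from 47.0, 59.3 and 42.5 to 179, 661, 689 and 1152 (log2 difference 3.47 ± 0.59 SE, adjusted p = 0.00762). AMHR2, the receptor for anti-Müllerian hormone, went the other way, with 637, 848 and 774 against 35.5, 123, 52.3 and 318 (log2 difference -3.00 ± 0.70 SE, adjusted p = 0.0227, and 0.0961 without fetal control 2), and all 4 adults were below all 3 fetuses. IRX5, an Iroquois factor of pregranulosa cells, was lower by a small margin (-1.11, adjusted p = 0.05, and 0.171 without fetal control 2). INHBA, the activin subunit, held 999.8, 870.2 and 911 against 2545, 1139, 1139.9 and 1927 (log2 difference 0.78 ± 0.30 SE, adjusted p = 0.106), and KITLG, the ligand of KIT, held 785, 726 and 612 against 341, 816, 425 and 162 (log2 difference -0.92 ± 0.49 SE, adjusted p = 0.214). Neither passed the test.

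Steroid synthesis was carried by different adults for different enzymes. Of 16 measured genes 2 were higher and 1 lower (0 to 3 higher and 0 to 3 lower with 1 library left out, 7 and 3 without adult controls 4 and 6). CYP11A1, the enzyme that cuts the side chain of cholesterol, held 226, 153 and 452 in the fetus and 3678, 1764, 41090.5 and 2721 in the adult (log2 difference 4.37 ± 1.03 SE, adjusted p = 0.0236, and 0.102 without fetal control 2). Every adult was above every fetus, and adult control 6 was more than 10 times above the other 3 adults. STAR, which brings cholesterol into mitochondria, held 676, 728 and 809 against 3651, 1405, 40094 and 1218, with no overlap but no call (log2 difference 2.43 ± 1.12 SE, adjusted p = 0.156). HSD3B1, which makes progesterone, held 332, 410.2 and 515 against 608, 407, 11923 and 706 (log2 difference 1.54 ± 1.08 SE, adjusted p = 0.339), so that only adult control 6 was far from the fetal range.

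CYP17A1, the theca enzyme of androgen synthesis, showed the opposite order of adults. It held 71.4, 38.7 and 184 in the fetus and 197, 1107, 1.77 and 1288 in the adult (log2 difference 1.05 ± 2.03 SE, adjusted p = 0.745), with 2 reads in adult control 6 and over 1000 normalized reads in adult controls 5 and 7. INSL3, a peptide hormone of theca cells, held 148, 126 and 254 against 1038, 5320.2, 572 and 7113 (log2 difference 3.69 ± 0.88 SE, adjusted p = 0.0252, and 0.104 without fetal control 2), and every adult was above every fetus. IHH, the hedgehog signal that granulosa cells send to theca, had no row in the fetal table and held 2.54, 1347, 0.886 and 1262 in adult controls 4, 5, 6 and 7. HSD11B2, which inactivates cortisol, was lower in the adult, with 464, 368 and 415 against 113, 70.4, 231 and 91.6 (log2 difference -1.85 ± 0.41 SE, adjusted p = 0.0193, and 0.0893 without fetal control 1).

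Among corpus luteum genes 4 of 15 were higher and 0 lower, with a median of 1.74 (0 to 6 higher and 0 lower with 1 library left out, 9 and 0 without adult controls 4 and 6). The list mean was -1.25 to -0.82 in the fetal controls and 0.55, -0.06, 3.09 and -0.31 in adult controls 4, 5, 6 and 7, so adult control 6 held most of the luteal transcripts. Without adult controls 4 and 6 the median of the list fell to 0.83, and its 9 higher genes come from a fit that called 20.9% of all genes higher. OXT itself held 58.3, 120.4 and 49.5 in the fetus and 74.9, 64.9, 103875 and 52.0 in the adult and did not pass (log2 difference 2.51 ± 2.57 SE, adjusted p = 0.515), and its difference was negative without adult control 6. APOE, the lipid carrier protein, was higher in all adults, with 12389, 8170.4 and 12566 against 34809, 26885, 45858 and 21334 (log2 difference 1.51 ± 0.30 SE, adjusted p = 0.0126, and 0.0681 without fetal control 2). RGS2, a brake on receptor signalling, was higher as well (1.25, adjusted p = 0.0275, and 0.117 without fetal control 2). APOE was also the single called gene of 22 for cholesterol uptake and synthesis, a list whose median was -0.12 (0 to 2 higher and 0 to 3 lower with 1 library left out, 3 and 4 without adult controls 4 and 6).

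Receptors for steroids split by type. ESR1, estrogen receptor alpha, held 288, 233 and 257 in the fetus and 1559, 756, 644 and 722 in the adult (log2 difference 1.73 ± 0.32 SE, adjusted p = 0.0104, and 0.0559 without fetal control 2). ESR2, estrogen receptor beta, moved the other way, with 479, 796 and 532 against 71.1, 183, 86.0 and 144 (log2 difference -2.37 ± 0.39 SE, adjusted p = 0.00673). The groups did not overlap for either gene, and ESR1 exceeded its fetal range most in adult control 4. NCOA1, a coactivator of these receptors, was lower (-0.92, adjusted p = 0.0094, and 0.059 without fetal control 2), and OXTR, the oxytocin receptor, lay at the threshold (-1.97, adjusted p = 0.0496, and 0.168 without fetal control 3). In all, 1 of 14 was higher and 4 were lower (0 to 3 higher and 1 to 4 lower with 1 library left out, 3 and 6 without adult controls 4 and 6). DESeq2 gave 4 higher and 4 lower.

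**Figure D2:**
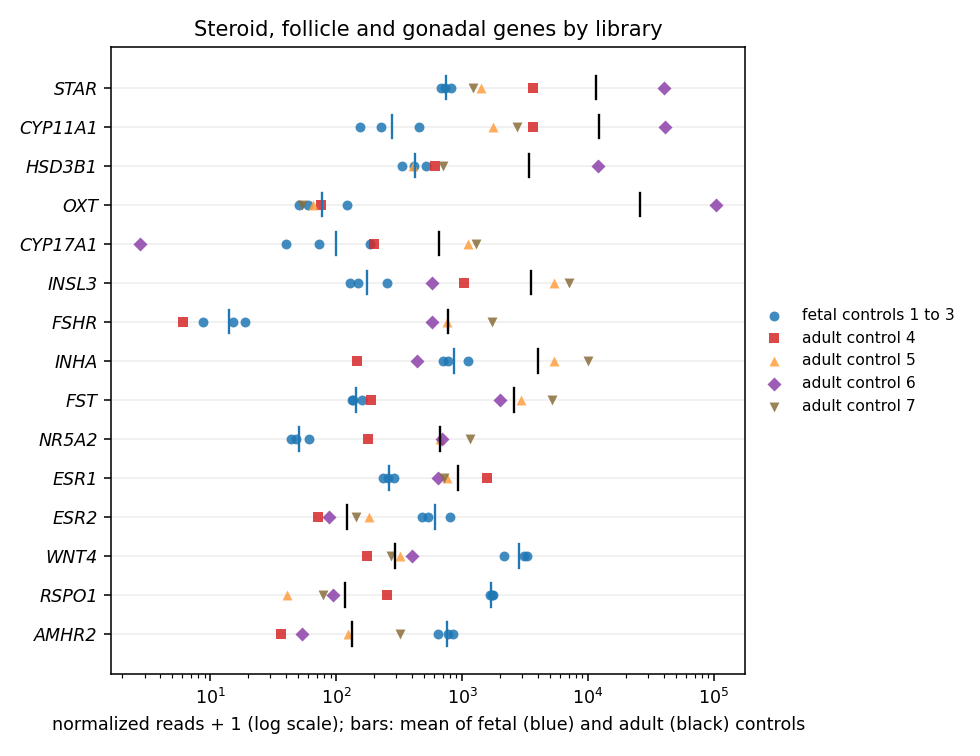
Normalized reads plus 1 (horizontal axis, log scale) of 15 steroid, follicle and gonadal genes in each library, with fetal controls as blue circles, adult controls 4 to 7 as separate symbols and short bars at the group means. Adult control 6 lies far to the right for OXT, STAR, CYP11A1 and HSD3B1 and far to the left for CYP17A1, while adult control 4 lies at the left for FSHR and INHA, and WNT4, RSPO1, AMHR2 and ESR2 have all adults to the left of the fetuses.

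Cell division genes included a few that were lower, and 2 adults lay near the fetus. Of 29 measured genes 6 were lower, 0 higher and 23 not called (median -1.36), and the fetal controls were above all adults for 17. The counts were 0 to 1 higher and 0 to 20 lower with 1 library left out, 3 and 10 without adult controls 4 and 6, and the most were lower without adult control 7. edgeR gave 0 higher and 3 lower. The list mean was 0.67 to 0.84 in the fetal controls and -1.58, 0.037, -1.36 and 0.67 in adult controls 4, 5, 6 and 7. PRC1, a spindle midzone protein, held 1125, 1322 and 1154 against 157, 369, 121 and 784 (log2 difference -2.13 ± 0.60 SE, adjusted p = 0.0436, and 0.146 without fetal control 2), and TTK, a spindle checkpoint kinase, held 420.0, 473 and 422 against 43.2, 122, 59.4 and 231 (log2 difference -2.23 ± 0.55 SE, adjusted p = 0.0287, and 0.112 without fetal control 2). In both the order of the adults was 6 and 4 low, 5 and 7 high. CDCA8 (-2.39, adjusted p = 0.0409, and 0.152 without fetal control 3), BUB1B (-2.06, adjusted p = 0.0476, and 0.154 without fetal control 2) and ANLN (-1.36, adjusted p = 0.0291, and 0.122 without fetal control 3), of chromosome passenger, checkpoint and cleavage furrow, passed in the same direction. TOP2A, the topoisomerase of dividing cells, held 2439, 2913 and 2111 against 512, 1825, 452 and 2731 and did not pass (log2 difference -1.25 ± 0.64 SE, adjusted p = 0.196), with adult control 7 inside the fetal range. CDK1, the mitotic kinase, held 334, 328 and 256 against 124, 861, 542 and 586 (log2 difference 0.50 ± 0.61 SE, adjusted p = 0.591).

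Among genes of DNA replication 6 of 29 were lower and 0 higher (median -0.80, and 0 higher and 3 to 12 lower with 1 library left out, 1 and 10 without adult controls 4 and 6). DESeq2 gave 0 higher and 10 lower, RPM 0 and 10 and the values as deposited 0 and 16. The fetal controls were above all adults for 18 of the 29. LIG1, the ligase that joins lagging strand fragments, held 8022, 7588 and 12003 against 1107, 1925, 916 and 2208 (log2 difference -2.64 ± 0.34 SE, adjusted p = 0.0029). MCM10, which loads the polymerase, held 1338, 1401 and 2020.2 against 192, 334, 313 and 412 (log2 difference -2.37 ± 0.29 SE, adjusted p = 0.00258). Neither gene came near overlap, since the lowest fetal value was over 3 times the highest adult value in both. GINS2 (-1.82, adjusted p = 0.0108, and 0.0621 without fetal control 3), MCM4 (-1.50, adjusted p = 0.0212, and 0.093 without fetal control 2) and MCM6 (-0.92, adjusted p = 0.00814, and 0.0523 without fetal control 2), parts of the replicative helicase, were lower by smaller amounts.

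Among cell cycle inhibitors and genes of cell cycle exit 6 of 21 were higher and 0 lower (2 to 7 higher and 0 to 1 lower with 1 library left out, 8 and 1 without adult controls 4 and 6), and these counts turned on the scaling. DESeq2 gave 9 higher and 3 lower, RPM 2 and 3 and the values as deposited 5 and 3. The list median of 0.34 became -0.024 with RPM, where the median over all genes was -0.33. CDKN2C, the p18 inhibitor, held 151, 165 and 150.4 against 1023, 610.2, 523 and 612 (log2 difference 2.10 ± 0.27 SE, adjusted p = 0.00274). CDKN1B, the p27 inhibitor, held 2665, 2632 and 2694 against 5204, 4092, 4267 and 4273 (log2 difference 0.74 ± 0.14 SE, adjusted p = 0.0101, and 0.0609 without fetal control 2). BTG1, an antiproliferative cofactor of mRNA decay, held 1924, 1679 and 1895 against 3718, 5039.9, 4451 and 4747 (log2 difference 1.29 ± 0.15 SE, adjusted p = 0.00205). Every adult was above every fetus for these 3 genes, including the 2 adults with high division genes.

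RNA-binding proteins that mark fetal development were lower. Of 8 measured genes of fetal timing 6 were lower and 0 higher (median -2.25) (0 higher and 5 to 7 lower with 1 library left out, 0 and 7 without adult controls 4 and 6). IGF2BP3, which binds and stabilizes fetal messages, held 1723, 2415 and 2335 against 13.96, 20.9, 16.8 and 35.1 (log2 difference -6.64 ± 0.36 SE, adjusted p = 1.6e-04). Its means differed 99.5-fold. IGF2BP2, of the same family, held 1846, 1952 and 1667 against 155, 79.2, 64.7 and 46.4 (log2 difference -4.53 ± 0.39 SE, adjusted p = 6.8e-04). PLAG1, a zinc finger activator of fetal growth, held 189.8, 219 and 166 against 35.5, 31.9, 23.0 and 26.01 (log2 difference -2.69 ± 0.32 SE, adjusted p = 0.00215). All 4 adults were far below all 3 fetuses in these genes. NR6A1, a nuclear receptor of germ cells and embryos (-3.53, adjusted p = 0.00524), and DICER1, which cuts microRNA precursors (-1.13, adjusted p = 0.00262), were lower as well. IGF2BP1 and LIN28B, which blocks let-7 microRNA maturation, had a row in the fetal table alone, with 109.9, 187 and 104 and 23.5, 36.1 and 13.3.

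Imprinted growth genes gave 4 lower and 1 higher of 10 (0 to 1 higher and 1 to 4 lower with 1 library left out, 1 and 5 without adult controls 4 and 6). MEST, expressed from the paternal copy in fetal tissue, held 4328, 3408 and 3822 against 1061, 889, 1277 and 1015 (log2 difference -1.87 ± 0.17 SE, adjusted p = 8.4e-04). IGF2, the fetal growth factor, held 25077, 11721 and 15629 against 9511, 5376, 5810.3 and 2547 (log2 difference -1.66 ± 0.45 SE, adjusted p = 0.0371, and 0.136 without fetal control 1), with every adult below every fetus. DLK1, a Notch-like surface protein of fetal tissue, held 3317, 1833 and 3102 against 1367, 12.1, 29.3 and 29.4 (log2 difference -5.39 ± 1.46 SE, adjusted p = 0.0376, and 0.125 without fetal control 3). Adult control 4 kept a value close to the fetal range while the other 3 adults were below 30 normalized reads, and DLK1 was not called by edgeR or DESeq2. PLAGL1 was lower by a small margin (-1.05, adjusted p = 0.0486, and 0.159 without fetal control 3). GRB10, an adaptor that damps insulin receptor signalling, was the one that was higher, with 724, 680.1 and 796 against 1547, 1120.3, 1806 and 1303 (log2 difference 0.96 ± 0.20 SE, adjusted p = 0.0147, and 0.0778 without fetal control 2).

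In the insulin-like growth factor system as a whole, 1 of 17 was higher and 1 was lower (0 to 3 higher and 0 to 2 lower with 1 library left out, 4 and 6 without adult controls 4 and 6). DESeq2 gave 5 higher and 1 lower. INSR, the insulin receptor, held 2010.0, 2055 and 2109.5 against 3203, 6766, 3217 and 7806 (log2 difference 1.23 ± 0.35 SE, adjusted p = 0.0425, and 0.135 without fetal control 2). It was highest in adult controls 5 and 7. IGF2R, the receptor that clears IGF2, held 12082, 9706 and 11730.1 against 12258, 8085, 15671 and 5593 and overlapped between the ages (log2 difference -0.20 ± 0.34 SE, adjusted p = 0.702), and its difference was positive without adult control 7.

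**Figure D3:**
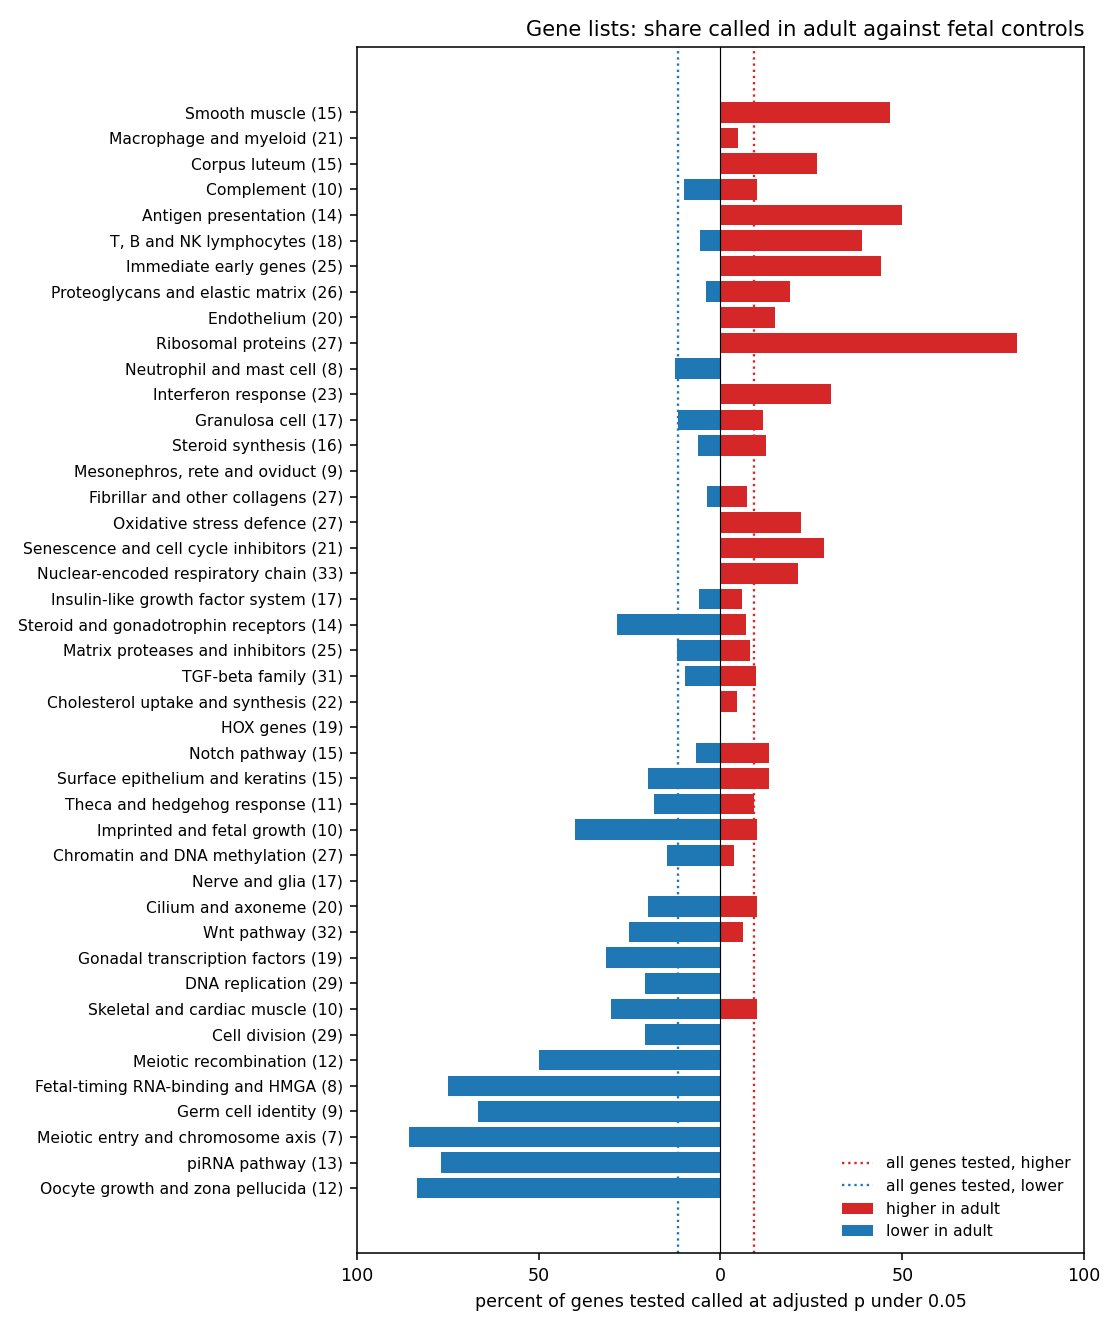
Share of the measured genes of each list called higher (red, right) or lower (blue, left) in adult controls at an adjusted p under 0.05, for the 43 lists with at least 5 genes tested, ordered by median log2 difference with the number of genes tested in brackets. Dotted lines mark the shares over all 15168 genes, 9.26% higher and 11.7% lower, and the germ cell, meiotic, piRNA, oocyte and fetal-timing lists extend farthest to the left and ribosomal proteins farthest to the right.

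Smooth muscle genes included many that were higher, with 7 of 15 higher and 0 lower and a median of 2.33. The list mean was -1.40 to -1.01 in the fetal controls and 2.75, 0.60, -0.56 and 0.82 in adult controls 4, 5, 6 and 7. ACTA2, smooth muscle actin, held 10302, 8208 and 8305 against 275063, 69393, 28056 and 65448 (log2 difference 3.11 ± 0.67 SE, adjusted p = 0.0173, and 0.077 without fetal control 2). MYOCD, the master coactivator of the smooth muscle program, held 177, 195 and 178 against 1713, 787, 405 and 918 (log2 difference 2.20 ± 0.44 SE, adjusted p = 0.0135, and 0.0621 without fetal control 3). All adults exceeded all fetuses in both, adult control 4 most and adult control 6 least. TPM2 (2.86, adjusted p = 0.0265, and 0.104 without fetal control 2), CNN1 (3.45, adjusted p = 0.0481, and 0.173 without fetal control 2) and MYH11 (2.66, adjusted p = 0.0421, and 0.138 without fetal control 3) passed as well. The counts were 0 to 11 higher and 0 lower with 1 library left out, 13 and 0 without adult controls 4 and 6, where the median was 2.14 and 20.9% of all genes were higher. DESeq2 gave 11 higher and 0 lower.

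Endothelial genes gave 3 of 20 higher and 0 lower (0 to 5 higher and 0 to 1 lower with 1 library left out, 5 and 4 without adult controls 4 and 6), and their list mean was -0.80 to -0.41 in the fetal controls and 1.83, -0.32, 0.78 and -0.63 in adult controls 4, 5, 6 and 7. DESeq2 gave 9 higher and 0 lower and quantile normalization 6 and 0. ROBO4, a guidance receptor of vessels, held 1042, 829 and 896 against 7228, 2657, 5715 and 1929 (log2 difference 2.05 ± 0.45 SE, adjusted p = 0.0184, and 0.0826 without fetal control 2). SELP, the adhesion molecule P-selectin, held 91.2, 49.0 and 70.8 against 1264, 439, 427 and 181 (log2 difference 2.72 ± 0.61 SE, adjusted p = 0.0199, and 0.091 without fetal control 2). FLT4, the receptor of lymphatic vessels, held 408, 369 and 333 against 4576, 736, 1903 and 925 (log2 difference 2.08 ± 0.59 SE, adjusted p = 0.0425, and 0.139 without fetal control 3). Adult controls 4 and 6 held the highest values of ROBO4 and FLT4, and without both the list median of 0.96 became -0.038.

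Matrix genes had calls in both directions. Of 26 proteoglycan and elastic matrix genes 5 were higher and 1 was lower (1 to 6 higher and 1 to 5 lower with 1 library left out, 7 and 8 without adult controls 4 and 6). Their median of 1.03 became 0.17 without adult controls 4 and 6. Of 27 collagens 2 were higher and 1 was lower (7.4% and 3.7%), below the 9.26% and 11.7% over all genes. The collagen counts were 1 to 3 higher and 1 to 4 lower with 1 library left out, 5 and 5 without adult controls 4 and 6. DESeq2 gave 5 higher and 2 lower and quantile normalization 2 and 4. DCN, the collagen-binding proteoglycan decorin, held 31959, 28486 and 34216 against 112036, 63785, 94109 and 69789 (log2 difference 1.40 ± 0.25 SE, adjusted p = 0.00945, and 0.0633 without fetal control 2). LUM, lumican, held 3466, 3857 and 2783 against 11416, 13623, 33982 and 11074 (log2 difference 2.22 ± 0.39 SE, adjusted p = 0.00898, and 0.0516 without fetal control 3). FBN2, the fibrillin of developing tissue, went down in every adult, with 6542, 5226 and 8910.4 against 1346, 1099, 1625 and 1378 (log2 difference -2.32 ± 0.22 SE, adjusted p = 9.3e-04). THBS1 (2.65, adjusted p = 0.0138, and 0.0667 without fetal control 2), EFEMP1 (3.45, adjusted p = 0.0326, and 0.12 without fetal control 2) and MGP, which blocks mineral deposition (2.61, adjusted p = 0.0416, and 0.143 without fetal control 2), were higher.

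COL6A3, a chain of the beaded filament collagen, held 5665, 3924 and 5190.2 against 31194, 13894, 20909 and 14357 (log2 difference 1.96 ± 0.31 SE, adjusted p = 0.00581). COL14A1, which decorates fibrils, held 2719.5, 2155 and 2521 against 30827, 8506, 9304 and 8583 (log2 difference 2.29 ± 0.45 SE, adjusted p = 0.0129, and 0.064 without fetal control 2). COL26A1 was lower in the adult, with 379, 184 and 218 against 16.5, 28.6, 23.9 and 17.0 (log2 difference -3.50 ± 0.40 SE, adjusted p = 0.00177). The main fibrillar collagens of the stroma did not pass. COL1A1 held 176740.0, 121804 and 160908 against 946838, 234801, 354481 and 122588 (log2 difference 1.05 ± 0.65 SE, adjusted p = 0.281), and COL3A1 held 145986, 90756 and 145111 against 567789, 146911, 266400.0 and 110698 (log2 difference 0.84 ± 0.57 SE, adjusted p = 0.324). Adult control 4 was the highest library for both and adult control 7 lay within the fetal range, and with quantile normalization the COL3A1 difference and the median of the collagen list became negative.

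Matrix proteases had calls in both directions, at shares near those over all genes. MMP15, a membrane-bound protease, was lower, with 4174, 4079 and 4974 against 1178, 759, 887 and 570.0 (log2 difference -2.42 ± 0.25 SE, adjusted p = 0.00121). ADAMTS17 was lower too, with 1318, 1129 and 1562 against 212, 498, 441 and 440.0 (log2 difference -1.81 ± 0.32 SE, adjusted p = 0.00873, and 0.052 without fetal control 3). MMP23B (1.71, adjusted p = 0.0152, and 0.0734 without fetal control 3) and ADAMTS5, an aggrecan-cutting enzyme (1.89, adjusted p = 0.0285, and 0.115 without fetal control 2), were higher. The list as a whole had 2 higher and 3 lower of 25 (0 to 7 higher and 1 to 3 lower with 1 library left out, 3 and 7 without adult controls 4 and 6). DESeq2 gave 7 higher and 3 lower. MMP1, an interstitial collagenase, was listed in the adult tables alone, with 3.81, 2264, 498 and 82.6 in adult controls 4, 5, 6 and 7.

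Lymphocyte genes included several that were higher in the adult. Of 18 measured T, B and NK cell genes 7 were higher and 1 was lower (median 1.40), with 4 to 10 higher and 0 to 2 lower with 1 library left out, 7 and 2 without adult controls 4 and 6. CD2, an adhesion receptor of T and NK cells, held 26.3, 18.1 and 20.3 against 309.8, 183, 363 and 121 (log2 difference 3.33 ± 0.45 SE, adjusted p = 0.00325). CD6, a T cell receptor partner, held 22.6, 18.1 and 15.9 against 160.0, 157, 189.7 and 103 (log2 difference 2.93 ± 0.35 SE, adjusted p = 0.00216). NKG7, a granule protein of cytotoxic cells, held 29.1, 25.8 and 23.9 against 190.4, 173, 359 and 179 (log2 difference 2.99 ± 0.36 SE, adjusted p = 0.00216). The groups lay far apart in all 3, with adult control 6 highest. CD3D, part of the T cell receptor complex (2.96, adjusted p = 0.0119, and 0.0604 without fetal control 3), and PRF1, perforin (2.67, adjusted p = 0.0215, and 0.0944 without fetal control 3), were higher too. CD4 and CD8A had rows in the adult tables alone, with 223, 64.9, 177 and 23.8 and 88.9, 61.6, 89.5 and 46.4.

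Antigen presentation and interferon response genes moved upward where they were called. Of 14 antigen presentation genes 7 were higher and 0 lower (1 to 10 higher and 0 lower with 1 library left out, 6 and 0 without adult controls 4 and 6). Of 23 interferon response genes 7 were higher and 0 lower (0 to 8 higher and 0 lower with 1 library left out, 7 and 4 without adult controls 4 and 6). The values as deposited gave 4 higher and 0 lower. B2M, the light chain of class I molecules, held 8181, 6163 and 6713 against 42186, 15624, 45807 and 15803 (log2 difference 1.91 ± 0.44 SE, adjusted p = 0.0213, and 0.0944 without fetal control 2). HLA-DRA, a class II chain as named in the files, held 1294, 874 and 970.3 against 9752, 3840.4, 11813 and 1844 (log2 difference 2.37 ± 0.62 SE, adjusted p = 0.0326, and 0.122 without fetal control 2). PSMB9, a subunit of the immunoproteasome, held 645, 577 and 494 against 2533, 1778, 2711 and 1071 (log2 difference 1.74 ± 0.33 SE, adjusted p = 0.0109, and 0.0589 without fetal control 3). Adult controls 4 and 6 were the highest and 5 and 7 the lowest adults in these genes, and all 4 exceeded the fetuses. PSMB8 (1.36, adjusted p = 0.0425, and 0.159 without fetal control 2) and CTSH, a lysosomal protease (2.93, adjusted p = 0.012, and 0.0623 without fetal control 3), were also higher.

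IFI44L, induced by type I interferon, held 70.5, 79.1 and 70.8 against 381, 174, 434 and 215 (log2 difference 1.92 ± 0.38 SE, adjusted p = 0.0125, and 0.0611 without fetal control 3). CXCL9 (2.35, adjusted p = 0.0144, and 0.068 without fetal control 2) and CXCL10 (1.42, adjusted p = 0.0139, and 0.0692 without fetal control 3), chemokines that draw T cells, and IRF9 of the interferon signalling complex (1.35, adjusted p = 0.0275, and 0.105 without fetal control 3) were higher in every adult. The medians of these lists rested in part on adult controls 4 and 6. Without both, the interferon median of 0.78 became -0.064, while the antigen presentation median of 1.43 became 0.83.

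Macrophage genes had a high median of 1.74 over 21 genes but 1 call in limma, against 17 in DESeq2 and 2 in edgeR. With 1 library left out limma called 0 to 10, the most without adult control 7. The list mean was -1.24 to -0.63 in the fetal controls and 0.89, 0.057, 3.02 and -1.06 in adult controls 4, 5, 6 and 7, with adult control 6 highest and adult control 4 next. FCER1G, an adaptor of Fc receptors, was the gene that passed, with 117, 85.1 and 91.1 against 416, 222, 1231 and 270.3 (log2 difference 2.10 ± 0.57 SE, adjusted p = 0.038, and 0.133 without fetal control 2). CSF1R, the receptor that maintains macrophages, held 1492, 1331 and 1633 against 1997, 722, 2748 and 317 (log2 difference -0.48 ± 0.69 SE, adjusted p = 0.648), higher than the fetus in 2 adults and lower in the other 2, and its difference was positive without adult control 7. Without adult controls 4 and 6 the median was 0.56, with 5 higher and 1 lower.

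Among complement genes 1 of 10 was higher and 1 was lower (0 to 3 higher and 0 to 1 lower with 1 library left out, 2 and 2 without adult controls 4 and 6). DESeq2 gave 5 higher and 1 lower. CFP, properdin, held 29.1, 28.4 and 38.0 against 279, 162, 1412 and 73.5 (log2 difference 3.01 ± 0.90 SE, adjusted p = 0.04995, and 0.155 without fetal control 2), and C5 held 86.5, 109 and 123 against 21.6, 29.7, 9.75 and 49.8 (log2 difference -2.10 ± 0.55 SE, adjusted p = 0.0344, and 0.135 without fetal control 3). HDC, which makes histamine, was lower in the adult, with 194, 163 and 258 against 7.62, 25.3, 6.20 and 28.3 (log2 difference -3.78 ± 0.61 SE, adjusted p = 0.00624), and was the one call among 8 neutrophil and mast cell genes (0 higher and 1 to 2 lower with 1 library left out, 0 and 2 without adult controls 4 and 6).

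**Figure D4:**
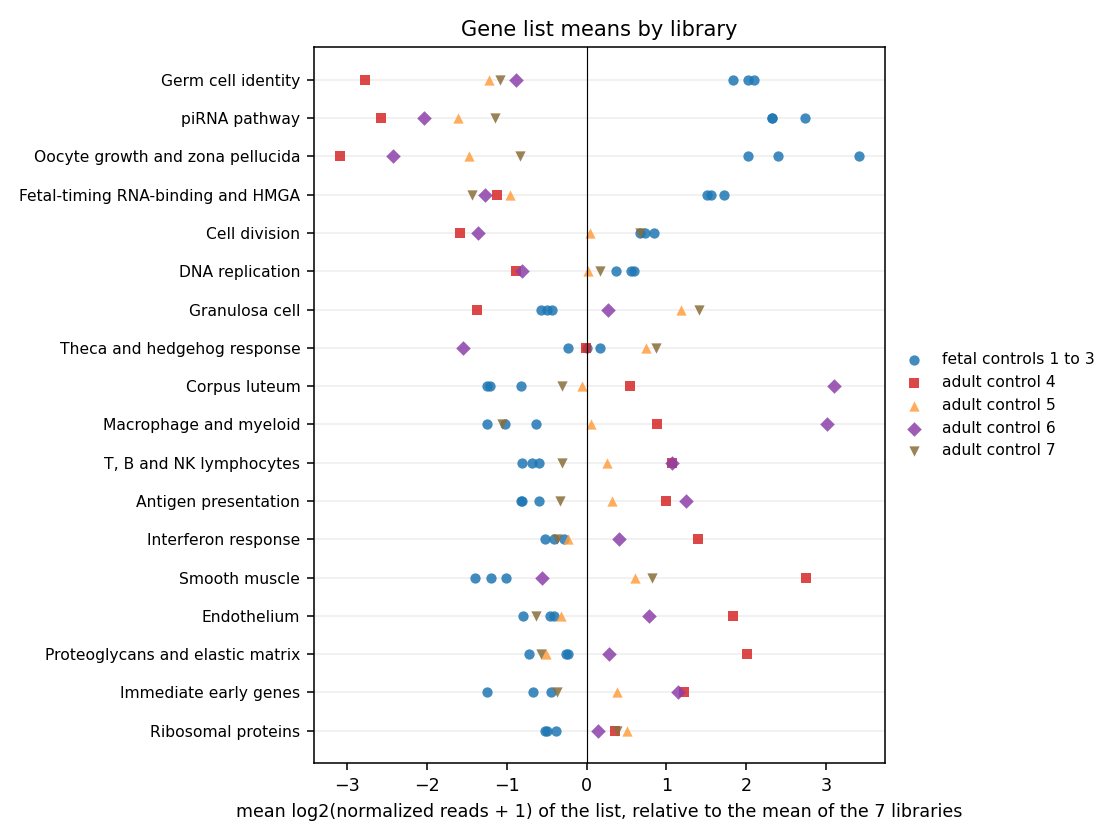
Mean log2 of normalized reads plus 1 over the measured genes of 18 lists, relative to the mean of the 7 libraries (horizontal axis, log2 units), with fetal controls as blue circles and adult controls 4 to 7 as separate symbols. The fetal controls lie close together in most rows. The germ cell, piRNA, oocyte and fetal-timing rows separate all fetuses from all adults by the widest gaps. Narrower gaps separate them for DNA replication, corpus luteum, lymphocytes, antigen presentation, smooth muscle, immediate early genes and ribosomal proteins, and hardly any gap for cell division. Adult control 6 stands out for luteal and macrophage genes, and adult control 4 for smooth muscle, endothelium and matrix.

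Immediate early genes, which are transcribed soon after a stimulus, gave 11 of 25 higher and 0 lower (median 1.21, and 3 to 13 higher and 0 to 1 lower with 1 library left out, 13 and 3 without adult controls 4 and 6). FOSL2, a Fos family factor, held 629, 619 and 804 against 3734, 4808, 7855 and 3588 (log2 difference 2.80 ± 0.29 SE, adjusted p = 0.0012). JUNB, its partner, held 393, 259.7 and 451 against 4502, 3163, 4958 and 1142 (log2 difference 3.06 ± 0.50 SE, adjusted p = 0.00689). NR4A2, an inducible orphan receptor, held 52.6, 58.5 and 54.8 against 328, 215, 520.3 and 183 (log2 difference 2.35 ± 0.39 SE, adjusted p = 0.00727). Every adult exceeded every fetus in the 3 genes, although the list mean of adult control 7 (-0.38) lay close to the highest of the fetal means, which ran from -1.25 to -0.44. GADD45B (1.17, adjusted p = 0.00963, and 0.0548 without fetal control 3), BTG2 (1.21, adjusted p = 0.0241, and 0.106 without fetal control 1) and ZFP36, which speeds the decay of inflammatory messages (2.31, adjusted p = 0.0404, and 0.149 without fetal control 2), were higher as well.

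Most ribosomal protein genes were higher in the main scaling. Of 27 measured genes 22 were higher, 0 were lower, and all 27 had every adult above every fetus (median 0.81). The counts were 2 to 24 higher and 0 lower with 1 library left out, 26 and 0 without adult controls 4 and 6. RPL11 held 21358, 22249.7 and 23779.5 against 46179.7, 50260.4, 42273 and 46512 (log2 difference 1.04 ± 0.16 SE, adjusted p = 0.00547), and RPL29 differed by 1.18, adjusted p = 0.00988, and 0.0588 without fetal control 2. The number of calls turned on the scaling. The list median was 0.45 with 1 call under RPM, 0.52 with 10 calls for the values as deposited, and 0.031 with 0 calls under quantile normalization. In the same order the median over all genes was -0.33, -0.26 and 0.027, so the list stood clear of it in all but the last.

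Genes of the respiratory chain encoded in the nucleus gave 7 of 33 higher and 0 lower (3 to 9 higher and 0 lower with 1 library left out, 7 and 2 without adult controls 4 and 6), and the median of 0.33 became -0.032 with RPM. RPM gave 2 higher and 2 lower, the values as deposited 3 and 1 and quantile normalization 4 and 0. Over all genes the median with RPM was -0.33. NDUFS7 of complex I held 1980.0, 2051 and 2014 against 4809, 4366, 5895 and 6326 (log2 difference 1.39 ± 0.16 SE, adjusted p = 0.00208). SDHB of complex II (0.83, adjusted p = 0.00711) was higher too. Of 27 oxidative stress genes 6 were higher and 0 lower (1 to 8 higher and 0 to 1 lower with 1 library left out, 12 and 1 without adult controls 4 and 6). DESeq2 gave 10 higher and 0 lower, RPM 2 and 1 and the values as deposited 2 and 1. GPX3, the secreted glutathione peroxidase, held 126, 162 and 151 against 17396, 2744, 34763 and 4029.8 (log2 difference 5.95 ± 0.84 SE, adjusted p = 0.0039), a 101-fold difference of the means in which every adult was at least 10 times above every fetus. PRDX6 (2.19, adjusted p = 0.0379, and 0.131 without fetal control 2) and HMOX1, the heme oxygenase (1.55, adjusted p = 0.0333, and 0.126 without fetal control 3), were highest in adult control 6.

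Signalling pathways with many members gave counts in both directions. In the Wnt pathway 8 of 32 were lower and 2 higher (median -0.47, and 2 to 4 higher and 5 to 12 lower with 1 library left out, 3 and 15 without adult controls 4 and 6). Beside WNT4 and RSPO1, RSPO2 held 907, 993 and 1899.9 in the fetus and 6.35, 25.3, 16.8 and 24.9 in the adult (log2 difference -6.11 ± 0.53 SE, adjusted p = 6.8e-04). WNT6 held 2518, 2655 and 2965 against 1247, 498, 398 and 416 (log2 difference -2.25 ± 0.39 SE, adjusted p = 0.00827). All adults were below all fetuses for both. SFRP4, a secreted Wnt inhibitor, was higher, with 25.4, 11.2 and 14.2 against 1898, 605, 2692 and 442 (log2 difference 5.997 ± 0.67 SE, adjusted p = 0.00171), and adult controls 4 and 6 held the most. The other higher gene was RSPO3, which unlike RSPO1 and RSPO2 rose, from a fetal mean of 217 to an adult mean of 1031 without overlap (log2 difference 2.24 ± 0.30 SE, adjusted p = 0.00319). RSPO3 is not among the 176 named genes, and its calls with 1 library left out are not given.

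In the TGF-beta family 3 of 31 were higher and 3 lower (9.68% each), near the 9.26% and 11.7% over all genes. The counts were 0 to 4 higher and 1 to 4 lower with 1 library left out, 9 and 9 without adult controls 4 and 6. DESeq2 gave 8 higher and 4 lower. BMPR1A, a receptor of bone morphogenetic proteins, was lower, with 2585, 2293 and 2531 against 1484, 1405, 968 and 991 (log2 difference -1.05 ± 0.20 SE, adjusted p = 0.0112, and 0.0595 without fetal control 3). ID3, a target of those proteins, was higher, with 1828, 947 and 1604 against 9682, 3658, 4049 and 3235 (log2 difference 1.72 ± 0.41 SE, adjusted p = 0.0251, and 0.107 without fetal control 2). GDF10 was higher by a small margin (2.01, adjusted p = 0.0479, and 0.17 without fetal control 3). In the Notch pathway 2 of 15 were higher and 1 was lower (0 to 2 higher and 0 to 5 lower with 1 library left out, 3 and 9 without adult controls 4 and 6). RPM gave 1 higher and 4 lower. MFNG, the manic fringe enzyme that modifies Notch (2.43, adjusted p = 0.0264, and 0.106 without fetal control 2), and NOTCH4, the endothelial receptor (1.06, adjusted p = 0.0479, and 0.171 without fetal control 2), were higher, and NOTCH2, the receptor of granulosa cells, was lower (-0.52, adjusted p = 0.0481, and 0.166 without fetal control 2). CDON, a coreceptor for hedgehog signals, was lower, with 1742, 1746 and 1891 against 1074, 684, 449 and 762 (log2 difference -1.34 ± 0.28 SE, adjusted p = 0.0156, and 0.0735 without fetal control 3), in a theca and hedgehog list with 1 higher and 2 lower of 11 (0 to 2 higher and 0 to 3 lower with 1 library left out, 3 and 3 without adult controls 4 and 6).

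Epithelial genes included a clear decrease and a clear increase. Of 15 measured genes 3 were lower and 2 higher (1 to 3 higher and 2 to 4 lower with 1 library left out, 3 and 4 without adult controls 4 and 6). ESRP1, which controls epithelial splicing, held 2106, 2066 and 2622 against 12.7, 56.1, 42.5 and 79.2 (log2 difference -5.79 ± 0.57 SE, adjusted p = 0.00103). EPCAM, an adhesion protein of epithelial and germ cells, held 1260.1, 1806 and 981 against 231, 303, 229 and 123 (log2 difference -2.63 ± 0.35 SE, adjusted p = 0.00322). UPK1B, a uroplakin of urothelium and mesothelium, held 41.3, 18.9 and 32.7 against 771, 769, 780.0 and 1643 (log2 difference 4.94 ± 0.39 SE, adjusted p = 5.1e-04). The adult values of UPK1B were alike in adult controls 4, 5 and 6 and higher in 7, far above the fetus in all.

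Of 10 measured genes of skeletal and cardiac muscle 3 were lower, 1 was higher and 6 were not called (0 to 1 higher and 3 to 5 lower with 1 library left out, 1 and 6 without adult controls 4 and 6). The called genes belong to the sarcomere, the contractile unit of striated muscle. TTN, titin, held 1132, 2202 and 840.3 against 33.0, 20.9, 27.5 and 23.8 (log2 difference -5.57 ± 0.38 SE, adjusted p = 3.3e-04). NEB, nebulin, held 1778, 2757 and 2502 against 526, 416, 629 and 581 (log2 difference -2.11 ± 0.22 SE, adjusted p = 0.00132), and MYH3, the embryonic myosin, held 124, 132 and 84.0 against 17.8, 9.90, 7.09 and 12.4 (log2 difference -3.20 ± 0.44 SE, adjusted p = 0.00363). Fetal control 2 held the most TTN and NEB, and the groups did not overlap. TNNI2, the fast troponin, was higher by a small margin (2.20, adjusted p = 0.0399, and 0.139 without fetal control 1).

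Chromatin genes gave 4 of 27 lower and 1 higher (0 to 2 higher and 1 to 6 lower with 1 library left out, 4 and 5 without adult controls 4 and 6), with the fetal controls above all adults for 12. DESeq2 gave 1 higher and 7 lower, RPM 1 and 7 and the values as deposited 1 and 11. TET1, which oxidizes methylated cytosine, held 1084, 926 and 1053 against 273, 349, 137 and 153 (log2 difference -2.27 ± 0.35 SE, adjusted p = 0.00573). HELLS, a remodeller needed for DNA methylation, held 1268, 1752 and 1144 against 117, 387, 179.9 and 463 (log2 difference -2.46 ± 0.49 SE, adjusted p = 0.013, and 0.0686 without fetal control 2), with the order of adults seen in the division genes. JARID2, a Polycomb partner, was lower (-1.48, adjusted p = 0.0262, and 0.114 without fetal control 2), as was CBX2 above, while CBX7, the Polycomb subunit of differentiated cells, was higher, with 124, 104 and 95.5 against 636, 251, 217 and 369.8 (log2 difference 1.64 ± 0.39 SE, adjusted p = 0.0258, and 0.104 without fetal control 3).

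Several genes outside the gene lists had large fitted decreases. STK31, a Tudor and kinase domain protein of germ cells, held 3878, 5332 and 3549 against 20.3, 24.2, 27.5 and 48.6 (log2 difference -7.15 ± 0.34 SE, adjusted p = 1.6e-04). RNF17, of the germ granule, held 1875, 2714 and 1518 against 5.08, 25.3, 16.8 and 22.6 (log2 difference -6.94 ± 0.54 SE, adjusted p = 4.7e-04). ELAVL2, an RNA-binding protein of neurons and oocytes, held 1415, 1886 and 1801 against 8.89, 17.6, 11.5 and 18.1 (log2 difference -6.87 ± 0.34 SE, adjusted p = 1.6e-04). SALL3 (-6.75, adjusted p = 6.8e-04) and ADAD1, a testis and germ cell RNA-binding protein (-6.57, adjusted p = 4.9e-04), were lower as well. All 5 had fetal values above 1000 and adult values under 50 normalized reads.

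Large increases, all outside the lists except CTGF, were of secreted proteins, receptors and enzymes of several cell types. APOD, an apolipoprotein that binds lipids and progesterone, held 213, 187 and 212 against 7002, 27624, 11757 and 11824 (log2 difference 5.97 ± 0.41 SE, adjusted p = 3.3e-04), a 71.3-fold difference of the means. GEM, a small GTPase that is induced by stimuli, held 185, 139 and 160.1 against 6473, 4700.2, 7619 and 4640.5 (log2 difference 5.15 ± 0.22 SE, adjusted p = 1.6e-04). RXFP1, the relaxin receptor, held 16.9, 18.9 and 10.6 against 777, 300.2, 271 and 933 (log2 difference 4.94 ± 0.53 SE, adjusted p = 0.00141). In all 3 the lowest adult value was over 10 times the highest fetal value. PTX3, a matrix protein of the expanded cumulus, held 61.1, 43.0 and 51.3 against 934, 4962, 1393 and 482 (log2 difference 4.67 ± 0.70 SE, adjusted p = 0.00509), highest in adult control 5. GRB14, an inhibitor of the insulin receptor, held 132, 95.4 and 94.6 against 1129, 2466, 1123 and 8342 (log2 difference 4.40 ± 0.68 SE, adjusted p = 0.00537), highest in adult control 7. C5AR2, a second receptor for the complement fragment of C5 (4.88, adjusted p = 0.00165), GALNT15, a glycosyltransferase (4.77, adjusted p = 0.00133), and KCNG1, a potassium channel subunit (4.40, adjusted p = 0.0074), were higher in all 4 adults. ITIH4, a secreted protein (4.46, adjusted p = 0.0326, and 0.112 without fetal control 2), and CTGF, a matricellular growth factor (3.23, adjusted p = 0.0242, and 0.0981 without fetal control 2), passed with wide spread among adults.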

How the data were processed

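Per the labels' protocols, RNA from whole frozen ovaries (500 ng per library) was read as 150-base pairs. Trimmomatic 0.36 and STAR 2.5.2b are named in the submitters' processing notes, while no build or counting program is named in the sources used here. The values the authors deposited are a signal column per library, which behaves as reads per gene divided by a library's size factor. In every library 100% of values were whole multiples of 1 step (within 0.01 reads), so reads were recovered by division. The authors' fold changes and p-values in log2 and p-value columns concern testosterone and were not used.

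Fetal controls 1 to 3 came from the fetal table, adult controls 4 and 5 from the first adult table and 6 and 7 from the second. Control 6 had 33.4 M reads there and 26.4 M in the first. Genes with a row in all 3 tables (15175 of 17323) were scaled with size factors of DESeq2 1.42.0 (median of ratios) over the 7 libraries. The main test was limma 3.58.1 in R 4.3.3 (trend option) on log2 of normalized reads plus 1. It covered genes averaging at least 10 normalized reads, with Benjamini-Hochberg adjusted p under 0.05. Alternatives were edgeR 4.0.16 (quasi-likelihood) and DESeq2 on the reads, other scalings, filters, pseudocounts, weights and thresholds, and left-out libraries. The fits were also run on simulated reads, drawn for each gene on its own. Such data hold no shift shared by many genes of a library, as seen in adult controls 4 and 6. The outcome is not given here.

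The 44 lists (1108 genes, 762 tested) and the members of the comparison were chosen with earlier results of these data known. Named genes were the largest changes with no overlap between the ages, the called list members of largest change without overlap, and a core of ovarian genes wherever measured, and some core genes are given that did not pass. A few genes that this rule would name are not reported here. Among genes without a row at one age, those other than STRA8, DMC1 and LIN28B were chosen after their values were seen. Depth of 22.6 to 33.4 M reads per library leaves genes of a few reads imprecise, and 0 reads were read as up to 3.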

Additional observations from a re-analysis of the deposited data

Results flagged for a closer look

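Of 176 named genes, 9 had 1 adult control far from the other 3. Chance alone gives such a gap in about 1 group of 20, so 9 is about as many as that share would give. Adult control 6 held 103875 normalized reads of OXT, against 52.0 to 74.9 in the other adults, and 11923 of HSD3B1, against 407 to 706. Both are luteal genes. It also held the most NKG7, a granule protein of cytotoxic lymphocytes (359 against 173 to 190.4), and the least CXCL10, a chemokine (240.2 against 416 to 461), and NOTCH2, a receptor (4971 against 6457 to 6710.4). Adult control 4 held 30827 of the fibril collagen gene COL14A1, against 8506 to 9304, and 646 of GDF10, against 138 to 179. Its ADAMTS17 value of 212 was below the 440.0 to 498 of the others. Adult control 7 held 1643 of UPK1B, against 769 to 780.0. None of the 9 was tested for a cause.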

How the results depend on the processing

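No paired analysis was possible because the fetal controls are numbered 1 to 3 and the adult controls 4 to 7, so the groups share no number. The 1405 higher and 1770 lower calls became 661 and 2926 with RPM, 764 and 3165 with the values as deposited, 359 and 699 at an adjusted p under 0.01, and 97 and 328 when a difference beyond 1 log2 unit was tested. DESeq2 called 2746 higher and 2441 lower, and edgeR 1425 and 1721. Leaving out 1 library gave 348 to 1840 higher and 675 to 2289 lower, and leaving out adult controls 4 and 6 together gave 3165 and 3447. Of all calls, 295 higher and 598 lower held in each of the 7 fits without 1 library. None of the main calls was called in the opposite direction in any of these alternatives. Quantile normalization, TMM factors, other filters and pseudocounts, weights by age, voom weights, control 6 from the first adult table and missing genes counted as 0 kept both counts within 1.5 times.

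Of 176 named genes, 156 were called, and none of these 156 changed sign in any alternative. Both edgeR and DESeq2 also called 148 of them, and 76 held without any 1 library. The named calls lost numbered 71, 74 and 76 without fetal controls 1, 2 and 3, and 9, 28, 22 and 13 without adult controls 4, 5, 6 and 7. Signs changed for named genes without a call and for list medians, also of lists with called members. Of 44 list medians 9 changed sign without adult controls 4 and 6 (interferon to -0.064, endothelial to -0.038), 6 with RPM, 4 with the values as deposited, 4 with DESeq2, 2 with edgeR, 2 with quantile normalization and 0 to 2 with 1 library left out. With quantile normalization COL3A1 became -0.19 and the collagen median -0.093. With RPM NR5A1 became -0.25, the respiratory chain median -0.032 and the median of cell cycle inhibitors -0.024, and with the values as deposited NR5A1 became -0.18. The median over all genes was itself -0.33 with RPM and -0.26 with the values as deposited. With 1 library left out, the lowest and highest values were -0.24 and 0.49 for NR5A1, -0.26 and 1.76 for INHA, -0.44 and 0.066 for IGF2R, -0.94 and 0.10 for CSF1R and -0.16 and 3.50 for OXT. The sign turned without adult control 7, and for OXT without adult control 6, where leaving out adult control 4 as well gave -0.28. The causes were not tested.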

Other observations

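Further gene groups had no limma calls between the ages or, for cilia, calls in both directions. None of 19 measured HOX genes was called by limma, 2 had an unadjusted p under 0.05, and DESeq2 called 2 higher. The adults split, with list means of 1.03 and 0.91 in adult controls 4 and 7 and -1.09 and -1.03 in adult controls 5 and 6, while the fetal controls lay between -0.17 and 0.19. Of 20 genes of cilia and their axonemes 4 were lower and 2 higher (0 to 2 higher and 2 to 4 lower with 1 library left out, 4 and 7 without adult controls 4 and 6). DNAH11, a dynein heavy chain of motile cilia, held 3879, 5287 and 5318 in the fetus and 637, 798, 460.0 and 907 in the adult (log2 difference -2.81 ± 0.26 SE, adjusted p = 8.6e-04), with no overlap. CCNO, which directs the making of many cilia, held 708, 275 and 1666 against 39.4, 70.4, 24.8 and 90.5 (log2 difference -3.75 ± 0.68 SE, adjusted p = 0.0094). HYDIN, of the central pair, was lower by a small margin (-2.62, adjusted p = 0.0476, and 0.149 without fetal control 2). Nerve and glia genes (17 measured) and genes of mesonephros, rete and oviduct (9 measured) had no call in limma, with 4 and 2 at an unadjusted p under 0.05, and DESeq2 called 2 and 1 higher and 1 and 1 lower. Without adult controls 4 and 6, 3 and 1 were higher and 6 and 2 lower. Over all 15168 genes 5655 had an unadjusted p under 0.05 in limma. That is a larger share than in the HOX, the nerve and glia or the mesonephros, rete and oviduct list.

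Some genes were listed at one age only and belong to no test. There were 1159 genes with a row in the fetal table and in neither adult table, and 598 with a row in both adult tables and not in the fetal one. By mean level the leading named genes of the first kind included TDRD15 with 546, 2208 and 825, TOPAZ1, a germ cell factor, with 767, 1148 and 504, COL9A1, a cartilage collagen, with 1223, 316 and 1130.4, PLD6 of the piRNA pathway with 551, 546 and 552, and MEIOC, which prolongs meiotic prophase, with 612, 820.3 and 126. PLD6 was nearly equal in the 3 fetal controls, and MEIOC was lowest in fetal control 3 as were SPO11 and DMC1. Leading genes of the second kind included TRH with 7.62, 8.80, 7431 and 2.26 in adult controls 4, 5, 6 and 7, IGFBP1, a binding protein of insulin-like growth factors, with 10.2, 761, 651 and 102, and ACTA1, skeletal muscle actin, with 1517, 45.1, 6.20 and 69.0. Each of these 3 was high in 1 or 2 adults and below 110 normalized reads in the rest.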
